A study of Petromyzon marinus with 6 samples.

Results

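AP2S1, MYL6 and ARL3 are 3 loci of the sea lamprey (Petromyzon marinus) brainstem transcriptome, out of 57134 loci in the count table. They were chosen by identifier (MSTRG.25378, MSTRG.40850 and MSTRG.11408), and their names come from the study's supplementary list of loci that differed after GABA treatment. The values that chose them are therefore the counts of the GABA-treated and control samples themselves, so their difference between these groups is given as a description, without a test. In the RefSeq gene table of another sea lamprey assembly (UKy_Petmar_22M1.pri1.0), 2 of the 3 symbols occur, AP2S1 and ARL3. That table was not matched to the loci by position.

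The 3 GABA-treated samples came from larval sea lampreys of the river Ulla, 5 to 7 years old, that were kept after a complete spinal cord transection in water with GABA (the inhibitory neurotransmitter gamma-aminobutyric acid) at 500 µM. The 3 control samples came from transected larvae of the same age kept without GABA. The methods of the study place the sampling at 29 days post-lesion, while the design text of the deposit states 9 days after injury. Each sample pooled the brainstems of 4 animals, so differences between animals cannot be seen, and a whole brainstem holds many kinds of neurons and glial cells besides the injured descending neurons. In such bulk samples, fewer cells of a type and less RNA per cell cannot be told apart.

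The 3 genes serve the transport and shape of the cell. AP2S1 encodes the sigma subunit of AP-2, the adaptor complex that links cargo to clathrin when vesicles form at the plasma membrane, a step that in nerve endings recovers synaptic vesicle membrane. MYL6 encodes an essential light chain of non-muscle and smooth muscle myosin II, the motor that pulls on actin filaments and, in vertebrate neurons, works in growth cones and retracting axons. ARL3 encodes a small GTPase that, in mammals, releases lipid-modified proteins from their carriers inside the primary cilium.

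AP2S1 was assembled on the minus strand of contig PIZI01000041.1 (assembly Pmar_germline 1.0), where it spans 2062962 to 2068338. Its 5 exon blocks added up to 2483 bp, and the block at the 3′ end took 1978 bp, or 79.7% of that length. ARL3 has a similar layout, on the minus strand of contig PIZI01000015.1 (4381716 to 4389163). It had 6 exon blocks with 2911 bp, of which 2077 bp (71.4%) were in the block at the 3′ end. MYL6 differs from both, with 7 exon blocks that added up to 991 bp spread over 22229 bp, on the plus strand of contig PIZI01000212.1 (184232 to 206460). Exons covered 4.46% of the MYL6 span, against 46.2% for AP2S1 and 39.1% for ARL3. The longest gap between MYL6 blocks was 12377 bp, against 1794 bp in AP2S1 and 1842 bp in ARL3.

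MYL6 was also the 1 locus of the 3 for which exons were listed more than once. Its table entry held 13 exons, in which 6 blocks were listed 2 times and a block of 42 bp, from 205418 to 205459, was listed 1 time. The locus was thus assembled with and without this short exon, which stands next to the last block. In mammals MYL6 is known for a short alternative exon near its 3′ end that separates a non-muscle and a smooth muscle form. The counts were made per locus and cannot be split between the forms.

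**Figure D1:**
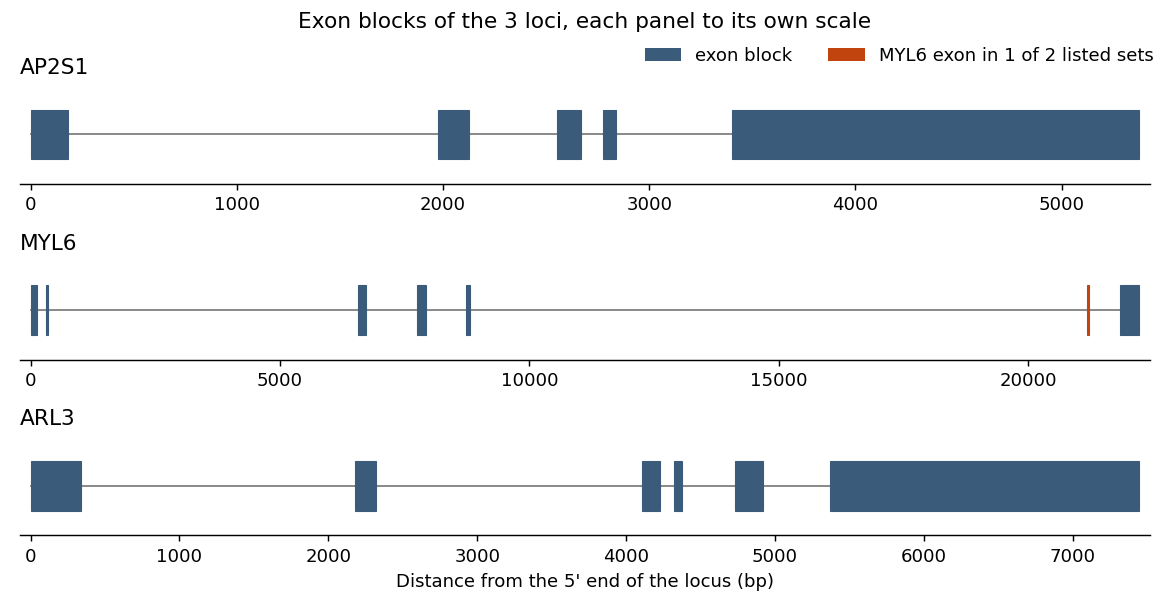
Exon blocks of AP2S1, MYL6 and ARL3 against the distance in bp from the 5′ end of each locus, each panel to its own scale. The block at the 3′ end is the longest in each locus, and the MYL6 block of 42 bp that was listed 1 time is drawn in another colour.

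In each of the 3 loci the block at the 3′ end was the longest. This layout was common, with 11610 of the 18500 loci of more than 1 block that passed the count filter (62.8%). Less common was that 0 other loci overlapped the span of AP2S1, of MYL6 or of ARL3 on either strand, as for 24.0% of the 24300 loci that passed the filter. Fragments were counted by strand in any case, which leaves out those of an antisense locus. MYL6 was the last of 21 loci on its contig, so that nothing could be compared beyond its 3′ end.

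All 3 loci passed the count filter of edgeR, and all 3 were abundant. The GABA-treated libraries held 13266414 to 14666153 counts each, with a median of 13655132, and the control libraries 12261374 to 14248306, with a median of 12560944. Spearman correlations between libraries across loci lay between 0.975 and 0.981, and 0 libraries stood apart. By mean normalized count (counts divided by the size factors of DESeq2), ARL3 ranked 1110, AP2S1 1677 and MYL6 3305 among the 24300 loci. Per length the order was another. In FPKM, computed here from the counts, the library totals and the exon lengths, MYL6 ranked 453, ARL3 561 and AP2S1 682.

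MYL6 averaged 62.2 ± 2.48 FPKM in the GABA-treated samples and 81.5 ± 7.46 FPKM in the control samples (SD, n = 3 each). ARL3 averaged 55.1 ± 0.772 FPKM in the GABA-treated samples and 67.2 ± 3.51 FPKM in the control samples. AP2S1 had the lowest level of the 3, with 46.3 ± 1.66 FPKM in the GABA-treated samples and 58.5 ± 4.10 FPKM in the control samples. Within each group the ranges of the 3 loci did not overlap, and the order MYL6, ARL3, AP2S1 was the same in the GABA-treated and the control samples.

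AP2S1 had 1528, 1421 and 1556 normalized counts in GABA-treated replicates 1, 2 and 3, against 1795, 2060 and 2065 in control replicates 1, 2 and 3. The groups were separated by a gap of 239.5 normalized counts, and control replicate 1 stood nearest to the GABA-treated samples. The means were 1501 ± 71.2 in the GABA-treated samples and 1973 ± 154 in the control samples (SD, n = 3 each), so that the treated mean was 76.1% of the control mean. The edgeR fit across all loci gave a log2 fold change of −0.38 (standard error 0.07).

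MYL6 had 848, 796 and 771 normalized counts in the GABA-treated samples, against 996, 1189 and 1103 in the control samples. Control replicate 1 was again the lowest control sample, 147.8 normalized counts above the highest GABA-treated sample, so the groups did not overlap. The means were 805 ± 39.3 in the GABA-treated samples and 1096 ± 96.7 in the control samples (SD, n = 3 each), a ratio of 73.5%. Its log2 fold change of −0.43 (standard error 0.08) was the most negative of the 3, an order that was not tested. With GABA-treated replicate 3 left out it was −0.40, against −0.41 for AP2S1. In every other fit MYL6 kept the most negative value.

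ARL3 had 2165, 2036 and 2087 normalized counts in the GABA-treated samples, against 2462, 2692 and 2821 in the control samples. As for the other two loci, the groups did not overlap, with a gap of 296.4 normalized counts above which control replicate 1 came first. The means were 2096 ± 65.1 in the GABA-treated samples and 2658 ± 182 in the control samples (SD, n = 3 each), a ratio of 78.9%. The log2 fold change was −0.33 (standard error 0.07).

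**Figure D2:**
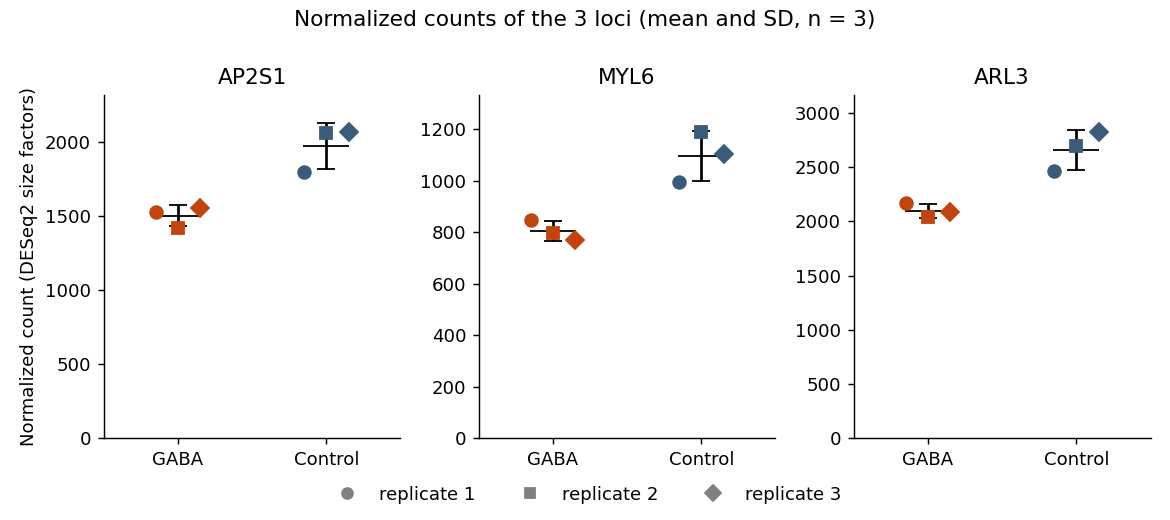
Normalized counts of AP2S1, MYL6 and ARL3 (vertical axes, counts divided by DESeq2 size factors) in the GABA-treated and control samples, with a marker for each replicate and lines for the mean and SD (n = 3). In each panel every GABA-treated sample lies below every control sample, and control replicate 1 is the lowest control sample.

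The separation did not rest on the scaling of the libraries. The unscaled AP2S1 counts were 1687, 1513 and 1579 in the GABA-treated samples, against 1910, 1933 and 1813 in the control samples. Those of MYL6 were 937, 848 and 783 in the GABA-treated samples, against 1060, 1116 and 968 in the control samples, and those of ARL3 were 2391, 2168 and 2118, against 2619, 2526 and 2476. At each locus the unscaled counts of the groups did not overlap either, although the median total of the GABA-treated libraries was the higher one. The loci were chosen on these same counts, so this is a description. The share of all loci without overlap in unscaled counts was not computed.

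The groups failed to overlap at 3 of the 3 loci, which is a property of the way they were chosen. Among the 24300 loci tested, 12.2% had groups that did not overlap, and 7.06% had every GABA-treated sample below every control sample. The quasi-likelihood test of edgeR, with p adjusted by Benjamini-Hochberg, called 0 of the 24300 loci (0%) at an adjusted p under 0.05, so 0 of the 3 were called. It found 1591 loci (6.55%) at an unadjusted p under 0.05, of which 842 (3.47% of those tested) were lower after GABA. DESeq2 at its default settings called 23 of the 5990 loci for which it adjusted p (0.384%), with 16 (0.267%) lower after GABA and the 3 loci among these. Without independent filtering DESeq2 called 7 of the 57134 loci in its fit and 0 of the 3. Without the filter on low counts edgeR called 58 of 54031 loci, with all 3 among these. Which of these fits is used thus decides whether the 3 loci are called.

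Over all loci tested, 48.5% had a log2 fold change below 0. The loci with a value below that of MYL6 numbered 903, and 901 of them were less abundant than MYL6. For AP2S1 there were 1167 such loci, 1162 of them less abundant, and for ARL3 1509, with 1504 less abundant. Among the loci more abundant than each, 2 of 3304 had a fold change below that of MYL6, 5 of 1676 below that of AP2S1 and 5 of 1109 below that of ARL3. These positions follow from the way the loci were chosen and are given as a description.

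**Figure D3:**
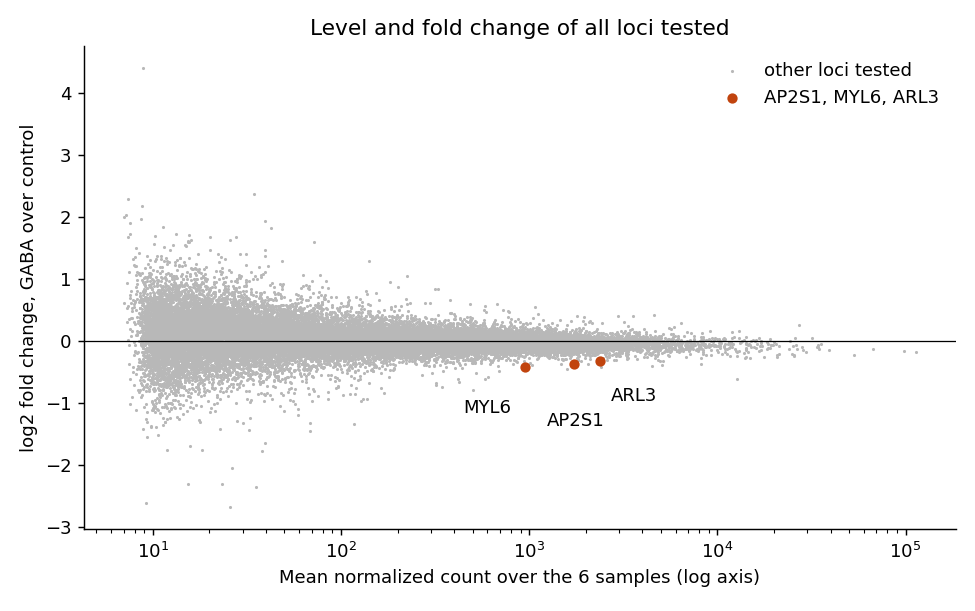
Log2 fold change from edgeR (vertical axis, GABA over control) against the mean normalized count over the 6 samples (horizontal log axis) for the 24300 loci tested. AP2S1 (−0.38), MYL6 (−0.43) and ARL3 (−0.33) have few loci below them among those to their right, 5 of 1676, 2 of 3304 and 5 of 1109.

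At each of the 3 loci the GABA-treated samples had the smaller spread, a difference that was not tested. It was not particular to these loci. The same direction was seen at their 4 testable neighbours and at STON2, VIM, CASK, LIMD2, MAP6, GABRA5 and SCRG1, which are described below. So it was at the white blood cell loci PTPRC, CD62L, VLRA and TLR2. CPLX1 and CARTPT went the other way. The share over all loci was not computed. The coefficient of variation of the normalized counts was 4.74% in the GABA-treated and 7.83% in the control samples for AP2S1. It was 4.88% in the GABA-treated and 8.82% in the control samples for MYL6, and 3.11% in the GABA-treated and 6.84% in the control samples for ARL3. Counting noise alone gives between 2.12% and 3.42% in the GABA-treated samples and between 1.98% and 3.09% in the control samples for these loci. With 3 samples a group, an excess over counting noise was not tested. The biological coefficient of variation that edgeR estimated was 6.82% for AP2S1, 7.29% for MYL6 and 6.33% for ARL3, against 7.37%, 7.79% and 7.31% on its trend for loci of that abundance. A low spread was part of what chose these loci and is no separate result.

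Single pairs of samples gave a wide range of differences. Over the 9 pairs of a GABA-treated and a control sample, the log2 ratio ran from −0.54 to −0.21 for AP2S1, from −0.62 to −0.23 for MYL6 and from −0.47 to −0.19 for ARL3. Control replicate 1 was the source of the smallest ratios. Its log2 CPM (the count scaled to the TMM-adjusted library size, on the log2 scale and centred on the mean of the locus over the 6 samples) was 0.06 for AP2S1, 0.08 for MYL6 and 0.06 for ARL3. Control replicates 2 and 3 stood at 0.26 and 0.24 for AP2S1, 0.34 and 0.21 for MYL6, and 0.19 and 0.24 for ARL3. The GABA-treated samples lay between −0.26 and −0.13 for AP2S1, between −0.27 and −0.15 for MYL6, and between −0.19 and −0.13 for ARL3.

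**Figure D4:**
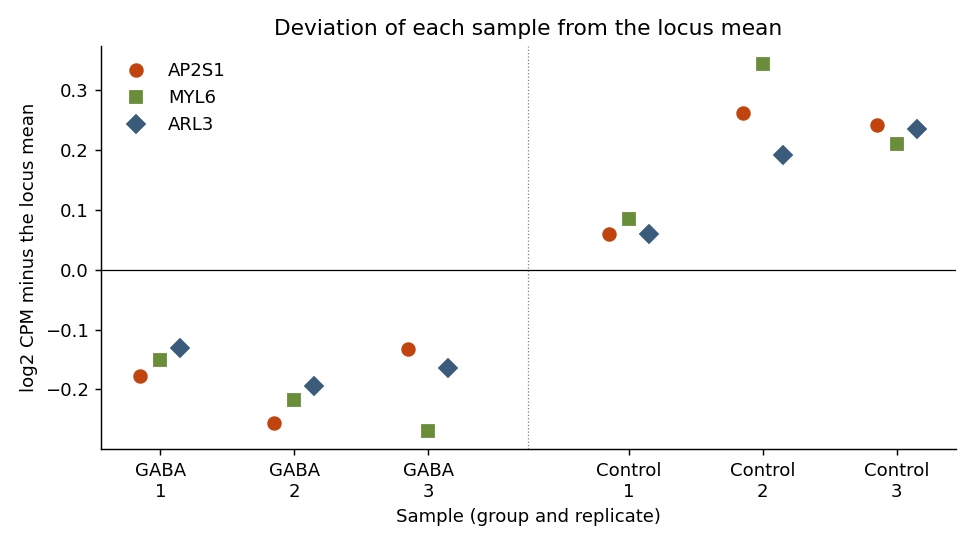
TMM-scaled log2 CPM of AP2S1, MYL6 and ARL3 minus the mean of each locus (vertical axis) in each GABA-treated and control sample. Every GABA-treated sample is below 0 and every control sample above 0, with control replicate 1 nearest to 0 at each locus (0.06, 0.08 and 0.06).

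Ratios between the loci within a sample do not depend on the scaling. The ratio of AP2S1 to ARL3 counts was 0.716 ± 0.0256 in the GABA-treated samples and 0.742 ± 0.0200 in the control samples (SD, n = 3 each). The ratio of MYL6 to AP2S1 counts was 0.537 ± 0.0359 in the GABA-treated samples and 0.555 ± 0.0217 in the control samples. That of MYL6 to ARL3 was 0.384 ± 0.0126 in the GABA-treated samples and 0.412 ± 0.0263 in the control samples, and the highest GABA-treated value (0.392) was above the lowest control value (0.391). In each of the 3 ratios the groups overlapped, and the mean was lower in the GABA-treated samples. These ratios were not tested, since their loci were chosen on the same counts for a lower value.

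The loci with the most similar course over the 6 samples were found by the root mean square difference of the centred log2 CPM values. For AP2S1 the nearest of 24299 other loci was an unnamed locus on contig PIZI01000003.1 (50274 to 61786, plus strand), at a difference of 0.034. The next ones lay on contig PIZI01000018.1 (3759231 to 3763284) at 0.040 and on contig PIZI01000067.1 (732372 to 735924) at 0.045. ARL3 ranked 4 for AP2S1, also at 0.045, and MYL6 ranked 33 at 0.070. The median over all loci was 0.280.

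For ARL3 the nearest was the same unnamed locus on contig PIZI01000003.1, at 0.028. It was followed by PTGES3, the gene of a co-chaperone of HSP90, at 0.032 and by an unnamed locus on contig PIZI01000033.1 (177748 to 205916) at 0.034, against a median of 0.259. AP2S1 ranked 16 for ARL3 and MYL6 ranked 171.

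For MYL6 the nearest were unnamed loci on contig PIZI01000015.1 (4650902 to 5074289) at 0.026 and on contig PIZI01000195.1 (192585 to 203466) at 0.031. HESB, a transcription factor of the HES family, was the third at 0.037, against a median of 0.298. Apart from ARL3, HESB was also the nearest locus with a symbol for AP2S1, at rank 8 and 0.053. AP2S1 ranked 11 for MYL6 and ARL3 ranked 20. HESB and PTGES3 stand on the same supplementary list as the 3 loci and were chosen there for the same difference, and all these values share the same 6 libraries. The ranks of AP2S1, MYL6 and ARL3 for each other rest in part on the way they were chosen. The medians cover loci of every abundance and are no measure for loci as abundant as these.

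The loci next to AP2S1, MYL6 and ARL3 were not chosen on this difference and were tested. Within 20 kb of the 3 loci lay 10 others, of which 4 passed the count filter, and edgeR called 0 of the 4 (at an unadjusted p under 0.05, 1 of the 4, the neighbour on the 3′ side of ARL3). Over all 24300 loci the same fit called 0% and found 6.55% at an unadjusted p under 0.05, so these counts do not set the neighbours apart. DESeq2 at its default settings adjusted p only for the 2 neighbours of ARL3 and called 0 of these. Within 50 kb, 8 of 21 loci could be tested and edgeR called 0.

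ARL3 had abundant neighbours on both sides and on the same strand. The locus on its 3′ side (4352537 to 4377507, 23 exon blocks) begins 4208 bp away and had 1901 ± 52.6 normalized counts in the GABA-treated samples and 2121 ± 95.7 in the control samples (SD, n = 3 each). edgeR gave it a log2 fold change of −0.14 ± 0.06 (SE) with a BH-adjusted p of 0.744. Its groups did not overlap, as for 12.2% of all loci tested, but without scaling they did. The locus on its 5′ side (4391091 to 4454696, 9 exon blocks) is 1927 bp away and had 2314 ± 85.1 normalized counts in the GABA-treated and 2549 ± 263 in the control samples, with overlap. edgeR gave it −0.12 ± 0.08 (SE) with a BH-adjusted p of 0.816. Per length both lay below ARL3, at 19.7 FPKM in the GABA-treated and 21.2 FPKM in the control samples on the 3′ side, and at 17.3 FPKM in the GABA-treated and 18.3 FPKM in the control samples on the 5′ side. Both log2 fold changes were smaller in size than the −0.33 of ARL3, a difference that was not tested because ARL3 was chosen for its value.

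AP2S1 had 1 testable neighbour, a locus of 6 exon blocks on its 5′ side, 1995 bp away on the same strand (2070334 to 2106740). It had 108, 101 and 109 counts in the GABA-treated samples and 92, 103 and 103 in the control samples. Here edgeR gave a log2 fold change of −0.04 ± 0.16 (SE) and a BH-adjusted p of 0.980. On its 3′ side a single-block locus 684 bp away on the same strand held between 5 and 7 counts in the GABA-treated samples and between 2 and 6 in the control samples, too few to be tested. The nearest neighbour of MYL6 that could be tested lies 11285 bp to its 5′ side (171064 to 172946) with 1 exon block. It had 9, 9 and 16 counts in the GABA-treated samples and 18, 30 and 10 in the control samples, with overlap. The log2 fold change was −0.89 ± 0.45 (SE), with a BH-adjusted p of 0.797 from edgeR.

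Other genes of vesicle traffic and the cytoskeleton could be followed only where the supplementary list names them. STON2, the gene of stonin-2, an endocytic adaptor that binds AP-2 and sorts synaptotagmin into vesicles, had 1624, 1814 and 1860 normalized counts in the GABA-treated samples, against 2106, 2381 and 2485 in the control samples. It had a log2 fold change of −0.38 ± 0.08 (SE), the same to 2 decimals as that of AP2S1, and its groups did not overlap. VIM, the gene of the intermediate filament protein vimentin, had 7199, 6323 and 7847 normalized counts in the GABA-treated samples, against 10218, 7920 and 9714 in the control samples. It had a log2 fold change of −0.37 ± 0.10 (SE), with a narrow gap of 73.0 normalized counts between the groups. Without scaling, the VIM counts of the groups overlapped. STON2 and VIM were chosen on this same difference and were not tested.

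The 4 further genes of this kind were listed for another treatment, baclofen, and were tested here. Of these, 3 passed the count filter and edgeR called 0 of them, with 0 at an unadjusted p under 0.05, against 0% called and 6.55% at an unadjusted p under 0.05 over all loci tested. DESeq2 called 0 as well. CPLX1, whose product complexin binds the SNARE complex of synaptic vesicles, had 11710 ± 1292 normalized counts in the GABA-treated and 12027 ± 886 in the control samples (SD, n = 3 each). The edgeR fit gave −0.02 ± 0.09 (SE) on the log2 scale, with a BH-adjusted p of 0.982. CASK, a scaffold kinase of the synaptic membrane, had 0.03 ± 0.12 (SE) in the same fit, with a BH-adjusted p of 0.986 from edgeR. LIMD2, a LIM domain protein, had 0.10 ± 0.11 (SE), with a BH-adjusted p of 0.901 from edgeR. MAP6, a protein that stabilizes microtubules, was near the limit of detection, with means of 3.76 normalized counts in the GABA-treated and 4.14 in the control samples.

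**Figure D5:**
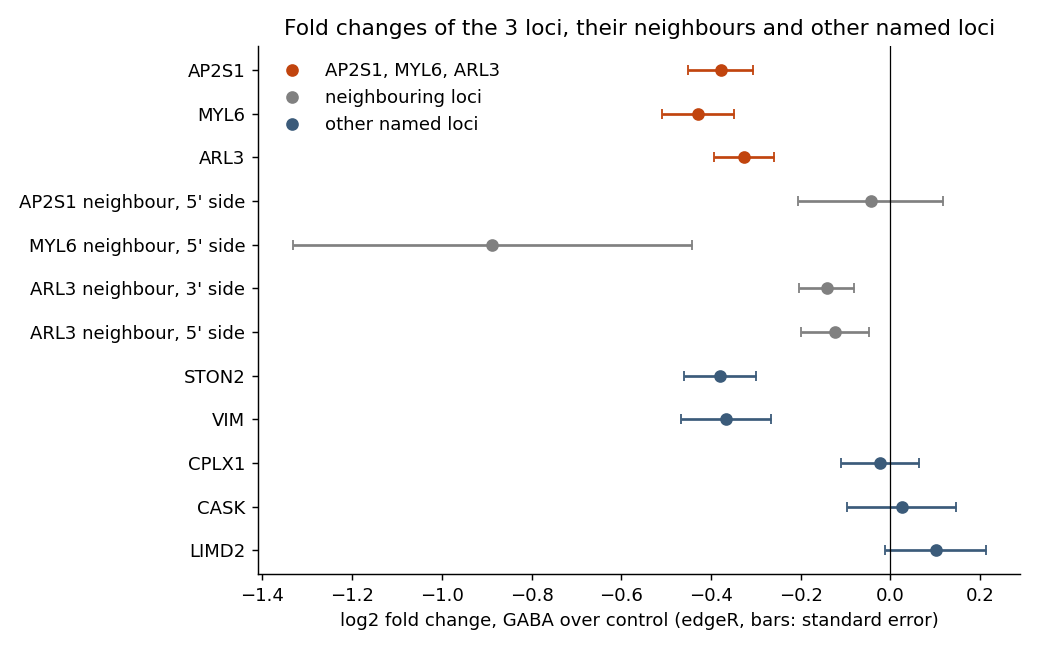
Log2 fold changes, GABA over control, from edgeR with standard errors (horizontal axis) for AP2S1, MYL6 and ARL3, for their 4 testable neighbours and for the other named loci of vesicle traffic and the cytoskeleton. AP2S1, MYL6 and ARL3 lie between −0.43 and −0.33, as do STON2 and VIM, while CPLX1, CASK and LIMD2 lie within their standard errors of 0. AP2S1, MYL6, ARL3, STON2 and VIM were listed for this same difference, and CPLX1, CASK and LIMD2 for baclofen, so the contrast follows from the choice.

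Named loci of cell types were measured beside these values. The 4 neuronal loci (CPLX1, CASK, GABRA5 and CARTPT) were detected, 0 of them at 0 counts, and summed to between 149 and 177 FPKM in the GABA-treated samples and between 159 and 179 in the control samples. Within this sum the loci differed in direction. GABRA5, a subunit of the GABA-A receptor, had a log2 fold change of 0.55 ± 0.14 (SE) and CARTPT, the gene of a neuropeptide precursor, one of −0.32 ± 0.08 (SE). The groups did not overlap at either locus, although those of CARTPT did without scaling. The 2 loci known from glial and ependymal cells are VIM and SCRG1. They summed to between 142 and 173 FPKM in the GABA-treated samples and between 176 and 219 in the control samples, without overlap. Most of this sum was VIM, with a mean of 146 FPKM in the GABA-treated and 183 FPKM in the control samples. Both loci were listed for this same difference, so the missing overlap is no separate result and gives no measure of glial content. GABRA5, CARTPT, VIM and SCRG1 all stand on the supplementary list for GABA and were not tested, and the part of the cell type loci in the lower values of AP2S1, MYL6 and ARL3 was not tested. The 4 loci of white blood cells (PTPRC, CD62L, VLRA and TLR2) summed to between 8.79 and 11.6 FPKM in the GABA-treated and between 7.83 and 14.0 FPKM in the control samples.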

How the data were processed

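Brainstem mRNA of 3 GABA-treated and 3 control samples was sequenced as stranded paired-end libraries. The authors used fastp for trimming and STAR for alignment to Pmar_germline 1.0, built loci with StringTie and deposited featureCounts fragment counts per locus, using strand. The deposited counts were not normalized. Of 57134 loci, 2 were broken over lines and rejoined. Sample columns left unmatched numbered 0.

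In R 4.3.3, filterByExpr kept 24300 loci, which were compared after TMM scaling with the two-sided quasi-likelihood test of edgeR 4.0.16. Its standard errors were derived here, as the size of the log2 fold change divided by the square root of the F statistic. For AP2S1, MYL6 and ARL3 they are given as a description, not as a test. A locus was called at a Benjamini-Hochberg (BH) adjusted p under 0.05. DESeq2 1.42.0, limma-voom (limma 3.58.1), other scalings and filters, offsets for locus length and abundance (lowess, span 0.3), a replicate block and each sample left out were alternatives. Log2 CPM used a prior count of 2. The fits were tested on simulated counts. Genes named are AP2S1, MYL6 and ARL3, their nearest neighbours, the named trafficking and cytoskeleton loci, and the 3 loci nearest by pattern with the nearest one that has a symbol. Members and lists were chosen with earlier results of these data known. Samples of a group pooled different animals, and p-values measure the spread between these pools. Figures used Python 3.11.15 and matplotlib 3.10.9.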

Additional observations from a re-analysis of the deposited data

How the results depend on the processing

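Over 17 alternatives each, the log2 fold changes of AP2S1, MYL6 and ARL3 stayed below 0, the direction for which the loci were chosen. They lay between −0.44 and −0.34 for AP2S1, between −0.50 and −0.36 for MYL6 and between −0.38 and −0.28 for ARL3. With 1 sample left out, they ran from −0.44 to −0.34, from −0.50 to −0.36 and from −0.38 to −0.29, and each was most negative without control replicate 1. The count of loci called by edgeR's quasi-likelihood test, 0, was also 0 with limma-voom, the other scalings, a mean count of at least 100, both offsets and each sample left out. With 1 sample left out, 1104 to 2247 loci had an unadjusted p under 0.05, and with a mean count of at least 100, 899 of 12260 did. DESeq2 called 23 of the 5990 loci for which it adjusted p, and 7 of the 57134 in its fit without independent filtering. With no count filter edgeR called 58 of 54031 loci. The DESeq2 runs differed only in independent filtering, and the run with 58 differed from the main edgeR run only in the count filter. How the filters changed the calls, and why DESeq2 and edgeR differed, was not tested. Same-numbered samples did not deviate together (r of −0.11, 0.03 and −0.12 for replicates 1, 2 and 3, across loci, which are not independent replicates). Differently numbered pairs ran from −0.08 to 0.17. No pairing by number was seen, which does not show that the samples were handled apart. With the replicate block the fold changes were −0.38, −0.43 and −0.33 and 0 loci were called, with 1332 at an unadjusted p under 0.05. Among neighbouring loci and the other trafficking and cytoskeleton loci, 0 were called under the alternatives run. In 14 of the 17 alternatives 0 of all loci were called, so those settings say nothing particular about these loci. DESeq2 at its default settings also gave no adjusted p to the neighbours of AP2S1 and MYL6. A mean count of at least 100 left the neighbour of MYL6 out, so these settings could not call them. Groups did not overlap at 3010 loci when scaled by library size, against 2964. The 10 nearest loci by pattern were the same 10 with library size alone, since a scaling shared by all loci cancels in that measure. Low counts limited the neighbours, since 6 of 10 had too few to be tested, and the number of samples limited the precision at each locus.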
